A study of Mus musculus with 20 samples.

Results

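The SOCS family, the suppressors of cytokine signaling, is described here in RNAseq counts of 20 mouse breast tumors. Its members were taken by gene name from the count table, which held all 8 of them (Cish and Socs1 to Socs7) among 43346 genes. All 8 passed the filter on low counts, as did 18883 genes in all. Each tumor came from a different female [BALB/c-neuT x FVB/J] F1 mouse. All mice, and therefore both groups compared, carried neuT, an activated rat Her2 (neu) oncogene inherited from the BALB/c father and expressed from a mouse mammary tumor virus promoter, which is active mainly in mammary epithelium. There was no treatment and no normal mammary tissue, and ages of single mice are not given in the sources used here. Sample names placed 9 tumors in a group called Lo and 11 in a group called Hi, and what these words stand for is not given in the sources used here. Tumors are named below by group and number, such as Lo 2.

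SOCS proteins are brakes on cytokine and growth factor signaling. Cytokine receptors activate JAK kinases, which switch on STAT transcription factors, and STATs in turn raise transcription of several SOCS genes, so that the pathway limits itself. An SH2 domain brings each SOCS protein to phosphorylated receptors or kinases, and the SOCS box at its end recruits elongins, a cullin and a RING protein that mark the bound protein for degradation. In the mammary gland, prolactin acts through STAT5 to drive milk genes, STAT3 is active when the gland regresses after weaning, and SOCS proteins restrain both arms. Cish and Socs1 to Socs3 are the members best known as cytokine-induced, whereas Socs4 to Socs7 are linked mainly to receptor tyrosine kinases and insulin signaling.

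The DNA element that activated STATs bind is usually written TTCNNNGAA, which reads the same on both strands, and 2 members are shown because their promoters held it. RefSeq windows (GRCm38.p6, from 250 bases before to 50 bases after the annotated start) were found for 4 members, Socs1, Socs3, Socs4 and Cish. The stretches around the matches read as follows, 5′ to 3′ on the gene's strand, with the matches in capitals.
Socs3, chr11:117969507-117969525, minus strand: cagccTTCTTAGAAgggag
Cish, chr9:107296654-107296683, plus strand: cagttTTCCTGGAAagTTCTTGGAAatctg
The Socs3 match began at position -154 from the RefSeq start. The Cish matches began at bases 1 and 12 counted from the RefSeq start of Cish. Both starts and the matches lie inside the wider gene spans given below, which are those of the count table. Of 32851 windows of 300 bases, 8.30% held at least 1 such match and 0.457% held at least 2. These letters were not found in the windows of Socs1 and Socs4, and windows for Socs2, Socs5, Socs6 and Socs7 were not analysed here.

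Total counts ranged from 38765682 to 65465755 per tumor. A ribosomal RNA locus on Chr17 (Yam1 and AY036118) held 6.29% of counts in the lowest tumor and 27.7% in the highest, with a median of 19.62% in Lo and 14.02% in Hi tumors. These reads are part of the totals behind RPKM, so RPKM of other genes is lower where the locus takes more, and the groups are compared in CPM after TMM normalization. All 6 luminal epithelial markers were detected, with median levels from 6.24 RPKM for Elf3 and 15.7 RPKM for Krt19 to 521 RPKM for Epcam and 559 RPKM for Krt18, where RPKM is a gene's counts scaled to the total count of the tumor and to the listed length of the gene in kilobases. Defining markers of B cells were low, with 0.32 RPKM for Cd79a and 0.54 RPKM for Cd79b in the highest tumor of each. Those of T cells were low too, with 0.40 RPKM for Cd3e and 0.93 RPKM for Cd3g in the highest tumor of each. Macrophage markers were present, with a median of 94.5 RPKM for C1qa. The most alike pair of libraries, Lo 7 and Hi 2, had r = 0.989 across genes and differed beyond sampling noise, so each tumor counted as 1 sample. In bulk tumor RNA, a change in the number of cells of a type and a change in RNA per cell cannot be told apart.

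Socs2 and Socs5 were by far the most abundant members and Socs1 the least. Socs2 made up 54.2% of all reads counted on the family on average (48.8% to 61.6% over tumors) and Socs5 made up 18.4%, whereas Socs1 made up 0.211%. In RPKM, the order of the medians over the 20 tumors was Socs2, Socs5, Socs3, Socs4, Cish, Socs7, Socs6 and Socs1. Socs2 was above Socs5 in 20 of 20 tumors, with a mean log2 difference of 0.44 ± 0.18 (SD). Socs5 was above Socs3 in 20 of 20 tumors, by 1.92 ± 0.37 on the log2 RPKM scale. Socs3, Socs4, Cish and Socs7 did not separate as neighbors, since each mean log2 difference was smaller than its SD. Socs3 was above Socs4 in 14 of 20 tumors, Socs4 above Cish in 10 and Cish above Socs7 in 11. Socs7 was above Socs6 in 20 of 20 tumors, by 0.31 ± 0.15, and Socs6 was above Socs1 in 20 of 20 tumors, by 2.08 ± 0.63.

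This order depends on the length each gene was given. The listed length of Socs2 was 9531 bases, a union over 14 annotated transcripts, whereas its longest principal transcript had 2222 bases. With principal transcript lengths, an alternative chosen after the data were seen, the Socs2 median was 132 in place of 30.8 RPKM and the Cish median 10.3 in place of 4.56 RPKM, which placed Cish after Socs5. The Socs6 median was 4.81 RPKM, above Socs4 (4.80) and Socs7 (4.63), so that the order of Socs7 and Socs6 reversed, and the Socs1 median was 0.360 in place of 0.859 RPKM. Socs2 stayed the most abundant and Socs1 the least abundant member with either length.

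**Figure D1:**
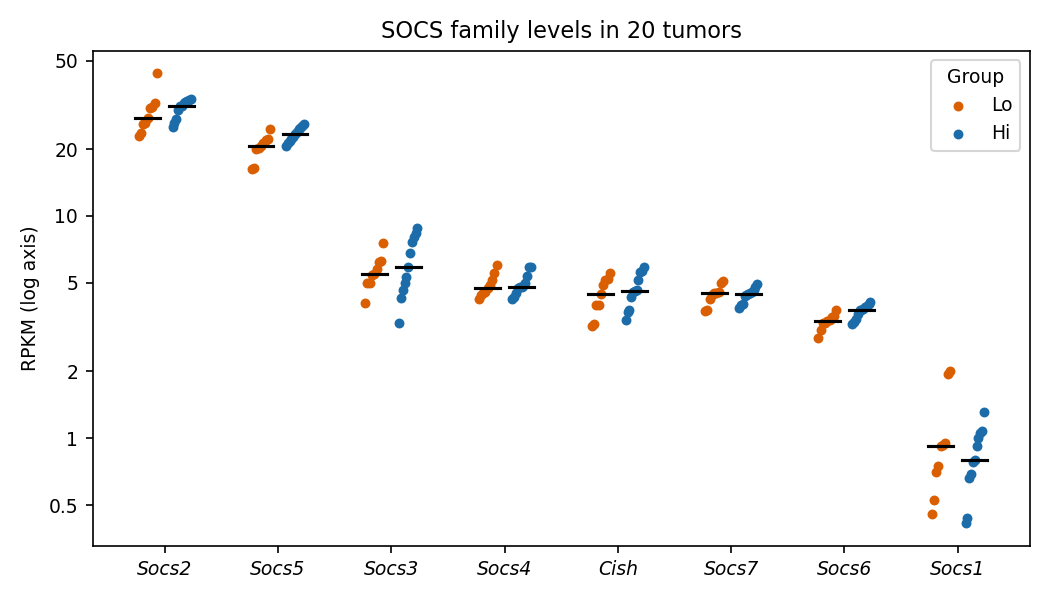
Levels of the 8 SOCS family genes in RPKM (log axis), 1 point per tumor, 9 Lo tumors in orange and 11 Hi tumors in blue, with black bars at the group medians. Socs2 and Socs5 lie above 16 RPKM in every tumor, Socs1 lies at or below 2.0 RPKM, and the 2 groups overlap for each gene.

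Cish (ENSMUSG00000032578, chr9:107296026-107302784, mm10) encodes CIS, which binds activated receptors at the sites that STAT5 uses. Its level was 3.19 RPKM in the lowest Lo tumor (Lo 4), 4.47 in the median and 5.54 in the highest (Lo 8), and 3.39, 4.58 and 5.90 RPKM in the Hi tumors, from Hi 2 to Hi 10. The groups overlapped over nearly their whole range. The value is uncertain in a way that those of the other members are not, because 2 annotated genes lie over Cish on the opposite strand. All 479 exon bases of Gm17041 lie within Cish exons, and Gm17040 shares 261 bases with them. Their mean counts were 426.5 and 130.4 per tumor, against 1511 for Cish, and the strand setting of the counting is not given in the sources used here, so reads of these genes and of Cish cannot be told apart with confidence.

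Socs1 (ENSMUSG00000038037, chr16:10783808-10785536) encodes the JAK inhibitor that interferon signaling induces. It rested on only 22 to 116 counts per tumor. Its level ran from 0.456 (Lo 6) through a median of 0.925 to 2.0 RPKM (Lo 8) in the Lo tumors, and from 0.414 (Hi 3) through 0.799 to 1.31 RPKM (Hi 9) in the Hi tumors. Lo 8 and Lo 1, at 2.0 and 1.95 RPKM, stood above the other 18 tumors.

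Socs2 (ENSMUSG00000020027, chr10:95385362-95417180) encodes the brake on growth hormone and prolactin receptor signaling. It had 8730 to 20443 counts per tumor. Lo tumors ran from 23.0 (Lo 6) through 27.7 to 43.9 RPKM (Lo 1), and Hi tumors from 25.2 (Hi 1) through 31.3 to 33.5 RPKM (Hi 11). Lo 1 was the highest tumor, and all Hi tumors lay within the Lo range. In CPM, Socs2 was 287 ± 38.9 in Lo and 283 ± 26.2 in Hi tumors (SD, n = 9 and 11), the opposite order to the RPKM medians.

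Socs3 (ENSMUSG00000053113, chr11:117966079-117970047) encodes the inhibitor that docks on gp130, the shared receptor of the interleukin 6 family. Lo tumors ran from 4.08 (Lo 2) through 5.51 to 7.59 RPKM (Lo 1), and Hi tumors from 3.29 (Hi 3) through 5.92 to 8.82 RPKM (Hi 1). Both the lowest and the highest tumor were Hi tumors.

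Socs4 (ENSMUSG00000048379, chr14:47276931-47296098) and Socs5 (ENSMUSG00000037104, chr17:87107679-87137583) encode proteins linked to breakdown of the EGF receptor. Socs4 ran from 4.24 (Lo 6) through 4.75 to 6.0 RPKM (Lo 3) in Lo tumors and from 4.24 (Hi 6) through 4.81 to 5.92 RPKM (Hi 3) in Hi tumors. Socs5 ran from 16.3 (Lo 2) through 20.7 to 24.6 RPKM (Lo 1) in Lo tumors and from 20.8 (Hi 6) through 23.5 to 25.8 RPKM (Hi 9) in Hi tumors. In CPM, Socs4 was 35.0 ± 5.20 in Lo and 33.0 ± 3.10 in Hi tumors (SD), also the opposite order to the RPKM medians. The groups spanned nearly the same range for Socs4, and for Socs5 the lowest tumors were Lo tumors.

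Socs6 (ENSMUSG00000056153, chr18:88665224-88927481) encodes a protein that binds KIT and the insulin receptor, and Socs7 (ENSMUSG00000038485, chr11:97362551-97398542) one that binds insulin receptor substrates. Socs6 ran from 2.82 (Lo 2) through 3.37 to 3.76 RPKM (Lo 1) in Lo tumors and from 3.27 (Hi 10) through 3.77 to 4.12 RPKM (Hi 2) in Hi tumors. Socs7 ran from 3.73 (Lo 4) through 4.49 to 5.11 RPKM (Lo 8) in Lo tumors and from 3.87 (Hi 4) through 4.45 to 4.92 RPKM (Hi 8) in Hi tumors. In CPM, Socs6 was 28.5 ± 2.44 in Lo and 29.7 ± 1.92 in Hi tumors (SD). Socs7 was 33.4 ± 3.43 CPM in Lo and 31.1 ± 2.15 CPM in Hi tumors. The groups overlapped for both genes.

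How much the members varied between tumors was compared on the log2 CPM scale, where CPM gives the share of a gene in a library size adjusted by TMM, a scaling that removes most of the effect of the ribosomal RNA locus on library size. The cytokine-induced members other than Socs2 varied most. Socs1 had an SD of 0.56 and its highest tumor was 4.74-fold above its lowest. Socs3 had an SD of 0.36 and a 2.73-fold range, and 88.9% of genes of like level (mean log2 CPM within 1) had a lower SD. Cish had an SD of 0.26, above that of 82.0% of genes of like level. Socs1 was above 70.6% of its like-level genes, whose median SD was 0.46.

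Socs6 was the steadiest member. Its SD was 0.11 and its highest tumor was 1.27-fold above its lowest, and 7.28% of genes of like level had a lower SD. Socs5 (SD 0.12, 13.4% of like-level genes lower) and Socs7 (SD 0.13, 18.7%) were also steady, while Socs2 (SD 0.16, 35.3%) and Socs4 (SD 0.17, 49.0%) lay nearer the middle. The coefficient of variation of Socs6, 7.53%, compares with 2.61% from counting error alone, and that of Socs1, 41.8%, with 14.2%.

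**Figure D2:**
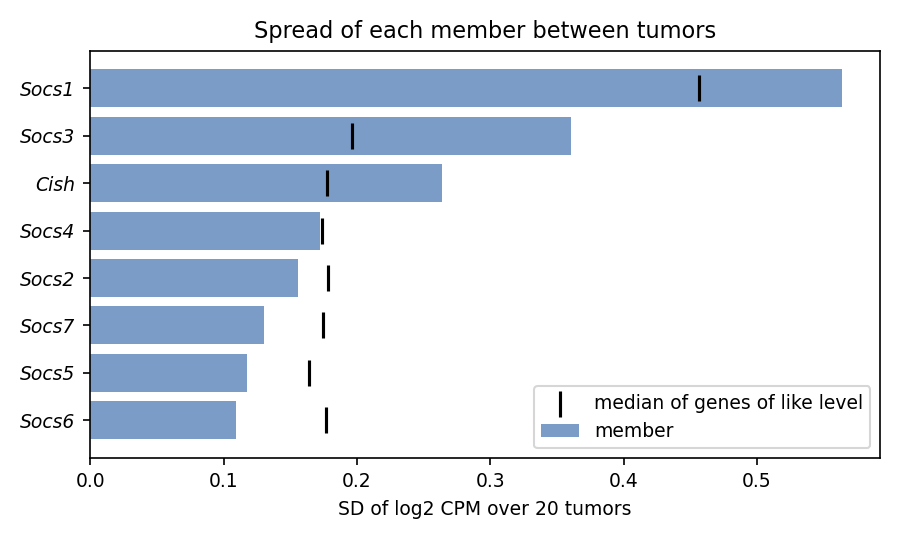
Standard deviation of log2 CPM over the 20 tumors for each member (bars), with a black tick at the median SD of genes of like level. Socs1 (0.56), Socs3 (0.36) and Cish (0.26) lie to the right of their ticks, and Socs6 (0.11), Socs5 (0.12) and Socs7 (0.13) to the left.

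The Lo and Hi tumors were compared because they are the groups that the sample names give. No member passed the test between them. Of the 18883 genes tested with edgeR's quasi-likelihood test, 0 (0%) passed an adjusted p of 0.05, DESeq2 called 1, and 1045 (5.53%) had an unadjusted p under 0.05, with none of the 8 members among these. With RLE size factors and with DESeq2, Socs5 had an unadjusted p of 0.0489 and 0.0462. Socs1 had the largest difference, 1.24 ± 0.567 CPM (SD, n = 9) in Lo and 0.991 ± 0.341 CPM (SD, n = 11) in Hi tumors, a log2 fold change (Lo over Hi) of 0.33 with a standard error of 0.25. Socs5 came closest to the threshold at 92.7 ± 8.35 CPM in Lo and 99.4 ± 5.58 CPM in Hi tumors, a log2 fold change of -0.10 with a standard error of 0.05 (edgeR adjusted p = 0.945). The log2 fold changes of Socs7, Socs4, Socs2, Cish, Socs3 and Socs6 were 0.10, 0.09, 0.02, 0.00, -0.05 and -0.06, each with an adjusted p of 0.992 or more. The median over the 8 members was 0.01 and over all genes tested 0.00.

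**Figure D3:**
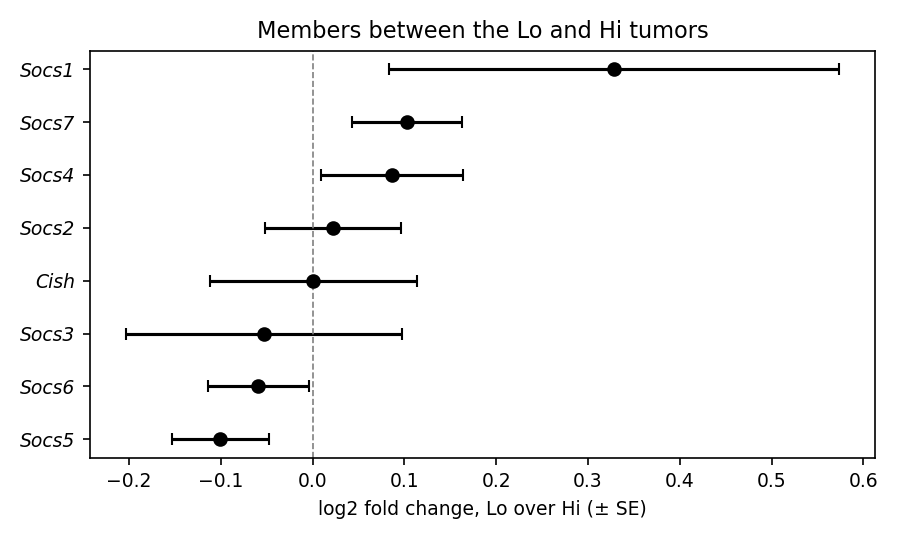
Log2 fold change of each member between the 9 Lo and the 11 Hi tumors (points, positive where Lo is higher) with its standard error (bars). Socs1 has the largest value, 0.33, with the widest error, and the other members lie between -0.10 and 0.10.

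The rest of the pathway was read from the same comparison, by lists of JAK kinases, STAT factors, receptors, response genes and cell markers. No listed gene passed the adjusted threshold. Interferon response genes gave the most unadjusted calls, since 10 of 12 had an unadjusted p under 0.05, all higher in Lo tumors, against 3.5% of all genes in that direction, and the median log2 fold change over the list was 0.97. The summed level of this list ranged from 126.6 to 871 CPM over tumors, here per total count without TMM. The ribosomal RNA share therefore stays in this sum. By list score, after scaling each gene, the list was highest in Lo 1, Lo 2, Lo 4 and Lo 8. Of the STAT factors, 2 of 7 had an unadjusted p under 0.05, both higher in Lo tumors.

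Each member was next used as a measure per tumor, and all other genes were tested for association with it by edgeR's quasi-likelihood test over the 20 tumors. With 18882 genes tested each time, 22 (0.117%) were called with Socs4, 4 (0.0212%) with Cish, 1 (0.0053%) with Socs6 and 0 (0%) with Socs1, Socs2, Socs3, Socs5 and Socs7. Unadjusted p-values under 0.05 numbered 1549 for Socs1, 1653 for Socs2, 2073 for Socs3, 1613 for Socs5 and 971 for Socs7, and DESeq2 called 8, 12, 50, 2 and 5 genes for them. DESeq2 called far more than edgeR for the other members, 241 with Socs4, 350 with Socs6 and 69 with Cish. No other member and no gene of the lists was among the edgeR calls.

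The 22 genes called with Socs4 were 19 that rose with it and 3 that fell (Timm13, Cdk5 and Bola2). Creb1, the cyclic AMP response factor, had the highest correlation with Socs4 (r = 0.92, rho = 0.89), and it rose by 0.84 on the log2 scale per log2 unit of Socs4 (standard error 0.11, adjusted p = 0.00179). Bdp1, a subunit of the RNA polymerase III initiation factor (r = 0.90), and Col4a3bp, the ceramide carrier (r = 0.88), came next among well expressed genes. Further genes that rose were Phip, Tnks2, Rc3h1, Taok1, Pdpk1, Med13 and Vcpip1. The tumors farthest from the Socs4 median were Lo 3 (44.8 CPM) and Hi 7 (28.1 CPM), and 0 genes were called without them. With Lo or Hi as a covariate, 6 genes were called.

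With Cish, the gene that rose was Gm17041 (r = 0.92), the antisense gene inside Cish, and Dcpp1, Dcpp2 and Cse1l fell. Cse1l, the exportin that returns importin alpha to the cytoplasm, had r = -0.81. Without Hi 2 and Hi 3, the tumors farthest from the Cish median, 0 genes were called. With Socs6, the 1 gene called was Rpap1, an RNA polymerase II associated protein, which fell as Socs6 rose (r = -0.87, rho = -0.90, adjusted p = 0.0192). It was not called without Lo 2 and Hi 10, with Lo or Hi as a covariate, or with the leukocyte score as a covariate, since 0 genes were called in those fits.

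The genes whose pattern over the 20 tumors was most like that of a member, by Pearson's r on log2 CPM and with no test, were Hlx (0.79), Parp10 (0.74) and Trafd1 (0.73) for Socs1. They were Anxa6 (0.79), Ccdc149 (0.77) and Nucb2 (0.77) for Socs2, and Macrod1 (0.83), Gpank1 (0.82) and Stub1 (0.81) for Socs3. For Socs5 they were Gm26669, Coa7 and Zc2hc1a (0.77, 0.77 and 0.76). For Socs6 they were Zcchc6 (0.81), Colec12 (0.80) and Atp2c1 (0.78), and Colec12 lies on Chr18 as Socs6 does. For Socs7 they were 2410131K14Rik (0.82), Zbtb7b (0.80) and Fosl2 (0.79). After Gm17041, Cish was most like Mfsd11 (0.82) and 2810013P06Rik (0.77).

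Interferon response genes were the list with the highest median r for Socs1, at unadjusted p-values only. Of the 12 listed, 12 had r above 0 with Socs1 (median r = 0.52, against 0.01 over all genes) and 11 had an unadjusted p under 0.05 in the positive direction, against 4.77% of all genes, but 0 passed adjustment. Tap1, which carries peptides to MHC class I, had the highest r at 0.70. Oas2 (r = 0.63), Gbp2 (r = 0.61), Irf1 (r = 0.57) and Psmb8 (r = 0.56) followed, and Cxcl9 had r = 0.23. The median r was 0.68 within the 9 Lo tumors and 0.20 within the 11 Hi tumors, and 0.56 without Lo 8 and Hi 3, and whether the groups differ was not tested. With Lo or Hi as a covariate, 9 of the 12 still had an unadjusted p under 0.05. The ligand Ifng was at or below 0.06 RPKM in every tumor.

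Socs5 had the opposite sign. All 12 interferon response genes had r below 0 with Socs5 (median r = -0.42), and 9 had an unadjusted p under 0.05 in the negative direction against 4.28% of all genes, with 0 after adjustment. This rested on few tumors, because the count was 0 without Lo 2 and Lo 8. It was also 0 with Lo or Hi as a covariate and 1 with DESeq2. The count was 9 with RLE size factors, without the filter on low counts and without the ribosomal RNA locus. With the leukocyte score as a covariate it was 10. The median r was -0.49 within the Lo and 0.25 within the Hi tumors, and whether the groups differ was not tested.

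For Socs3 the list with the highest median r was that of immediate-early genes, which tissues switch on within minutes of stimulation. Of 10 listed, 10 had r above 0 (median r = 0.47) and 9 had an unadjusted p under 0.05, against 6.57% of all genes in that direction, and 0 passed adjustment. Atf3 (r = 0.68), Ier2 (r = 0.57), Dusp1 (r = 0.53) and Fos (r = 0.49) had the highest values. The median r was 0.57 within Hi and 0.09 within Lo tumors. Of the 10 STAT3 response genes, 3 reached an unadjusted p under 0.05 with Socs3, namely Junb (r = 0.68), Cebpd (r = 0.50) and Il4ra (r = 0.41). All 5 adipocyte markers did so too (r between 0.36 and 0.42). Their summed level ranged from 6.24 to 66.8 CPM between tumors, again per total count without TMM. Without Hi 3 and Hi 5, 0 of the 5 adipocyte markers reached an unadjusted p under 0.05. Their median r was 0.37 both with and without these tumors. The part of adipocyte content in the level of Socs3 was not tested.

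**Figure D4:**
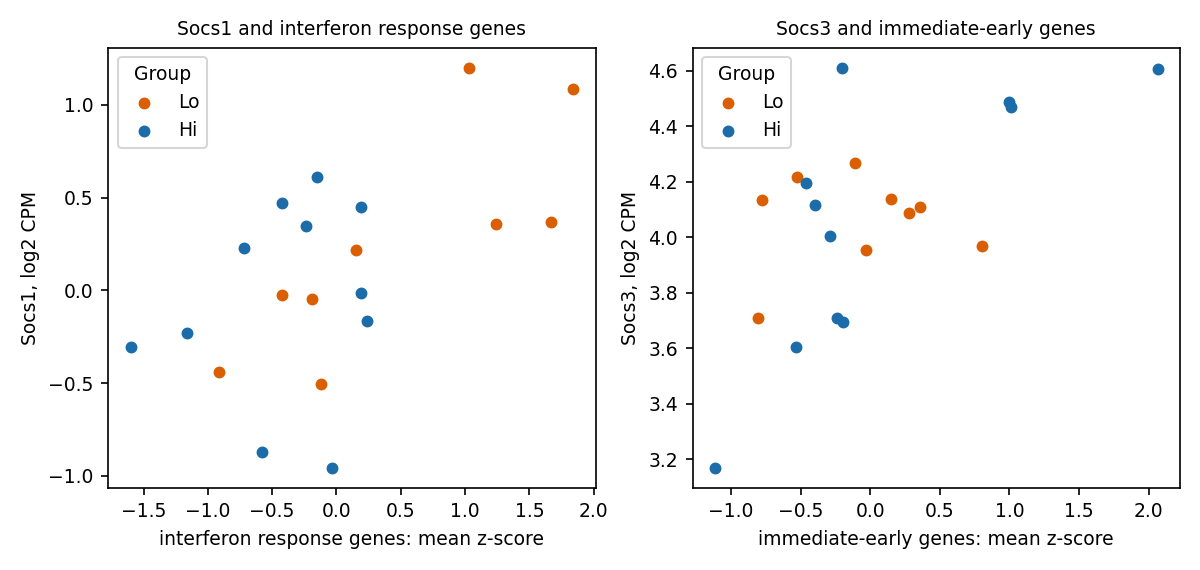
Log2 CPM of Socs1 against the mean z-score of the 12 interferon response genes (left) and of Socs3 against that of the 10 immediate-early genes (right), 1 point per tumor, Lo in orange and Hi in blue. Lo 1, Lo 2, Lo 4 and Lo 8 hold the 4 highest interferon scores, and Hi 3 is lowest for both Socs3 and the immediate-early score.

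For Socs2 it was that of leukocyte markers. All 6 had r above 0 (median r = 0.50), and 4 of them, Coro1a, Ptprc, Rac2 and Cd52, had an unadjusted p under 0.05, against 5.46% of all genes in that direction. Of the macrophage markers, 3 of 6 did so (Emr1, Csf1r and C1qa). None passed adjustment. Tested the other way, against a leukocyte score (the mean z-score of the 6 markers), Socs2 had a slope of 0.12 on the log2 scale per unit of the score (r = 0.62, unadjusted p = 0.0042, adjusted p = 0.083), in a scan that called 586 genes (3.1%). The other members had adjusted p-values of 0.497 or more. The summed leukocyte markers ranged from 68.0 to 141.5 CPM, again per total count without TMM. Without Lo 1 and Lo 4, 0 of the 6 markers reached an unadjusted p under 0.05.

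Genes downstream of STAT5 gave a mixed picture. Wap, Csn1s1, Csn1s2a and Csn2, which encode milk proteins, had positive slopes on Cish at an unadjusted p under 0.05, against 5.12% of all genes, and the same 4 did so with Socs1 and with Socs3. By the permutation test of r, Cish with Csn2 had r = 0.35 and p = 0.129. The median r of the 9 listed genes with Cish was 0.01, and 0.13 without Hi 2 and Hi 3. Milk genes differed widely between tumors. Csn2 ran from 46.6 through a median of 302 to 3638 RPKM, and Wap from 0.281 through 1.30 to 24.9 RPKM. Of the 9 genes of the list, 8 also rose with the leukocyte score at an unadjusted p under 0.05 (median r = 0.52), and 1 passed adjustment. In that direction, 1981 of 18877 genes had an unadjusted p under 0.05 with the score. Fits of the members with that score as a covariate were run, and their counts for this list are not reported here. With Cish, the other 5 genes of that list did not reach an unadjusted p under 0.05, among them Elf5, the STAT5-induced alveolar factor, with r = -0.12. Csn3 (r = 0.69) and Lalba (r = 0.46) reached that level with Socs2. None of these associations with members passed adjustment.

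The SOCS box recruits subunits of a degradation complex, and none of the 6 listed passed adjustment with Cish. All 6 had r below 0 with Cish (median r = -0.42), and 3 of them, Cul2 (r = -0.54), Cul5 (r = -0.53) and Tceb1, which encodes elongin C (r = -0.53), had an unadjusted p under 0.05 against 5.43% of all genes in that direction. Without Hi 2 and Hi 3 the count was 1 and the median r was -0.40. Tceb2, which encodes elongin B, had r = -0.03 with Cish and r = 0.64 with Socs3.

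Socs4, Socs6 and Socs7 had no list in which most genes reached an unadjusted p under 0.05 in the same direction, although 12.7%, 16.7% and 5.14% of all genes did so with them in either direction. With Socs6, 3 of 9 STAT5 and milk genes and 2 of 4 interferon receptors had positive slopes at that level, as did 2 of 4 JAK kinases, and another JAK kinase had a negative one. These were Ifngr2 (r = 0.75) and Ifngr1 (r = 0.70), the subunits of the interferon gamma receptor, Jak2 (r = 0.58) and Jak1 (r = 0.50), the kinases bound to it, and Jak3 (r = -0.61), a kinase of lymphoid cytokine receptors. None of them passed adjustment. Socs4 had r = 0.51 with the ribosomal RNA share (edgeR unadjusted p = 0.0206, adjusted p = 0.389) and Socs7 had r = 0.50 (unadjusted p = 0.0334, adjusted p = 0.432), in a scan that called 23 genes (0.122%). The part of this share in the associations of Socs4 and Socs7 was not tested.

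**Figure D5:**
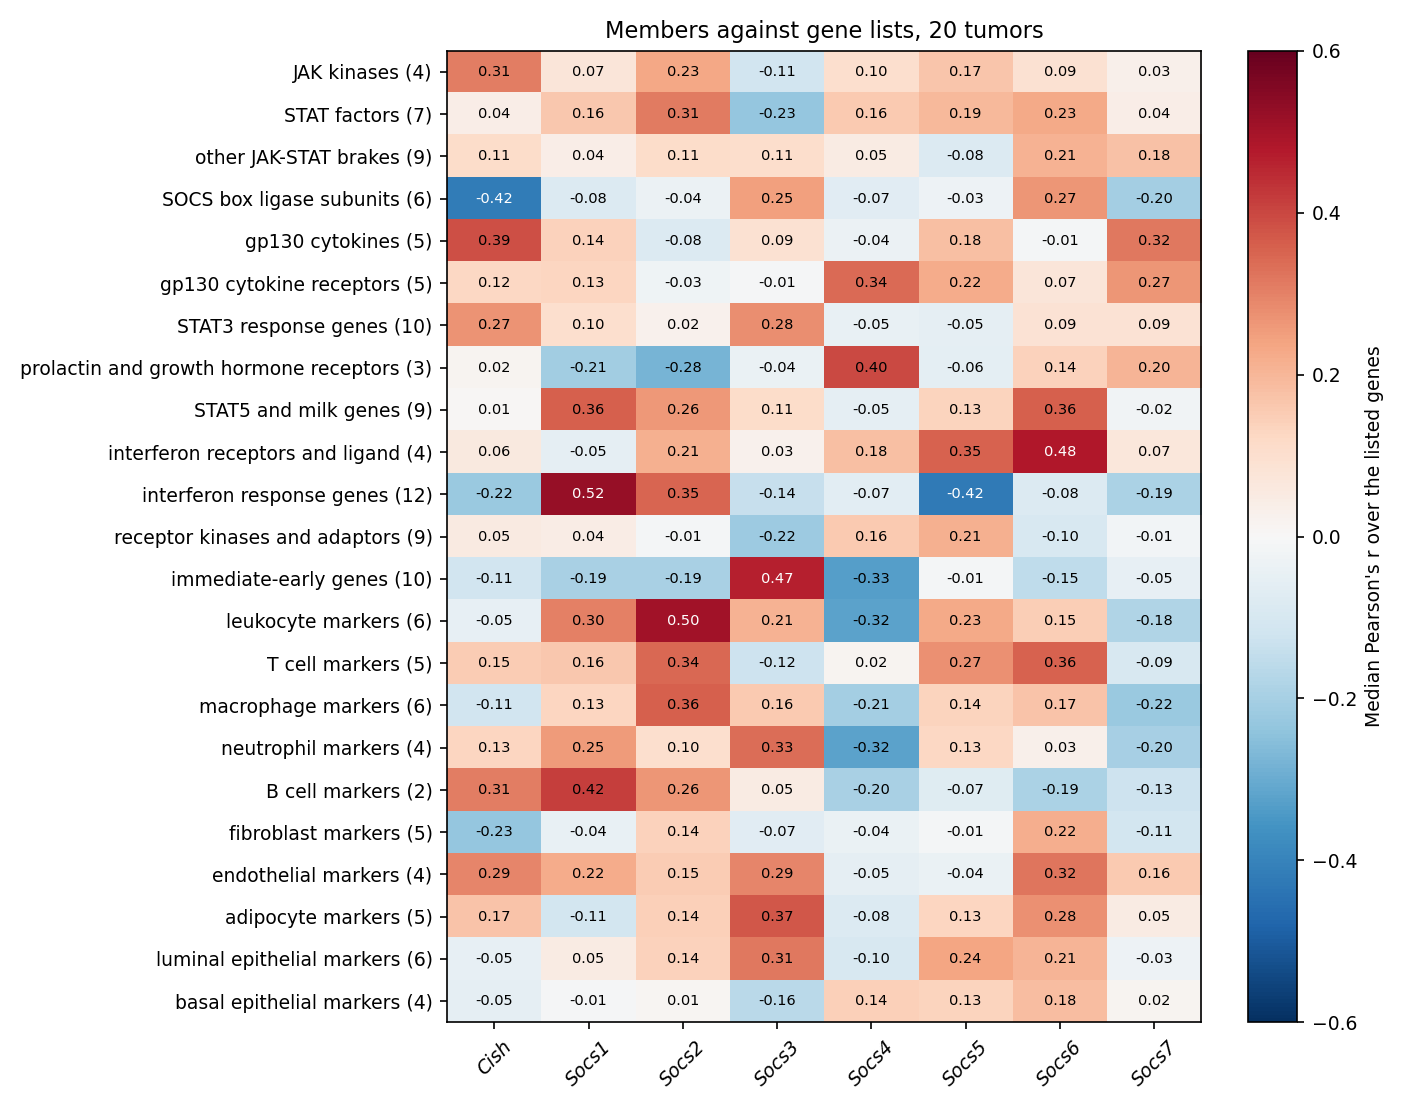
Median Pearson's r between each member (columns) and the genes of each list (rows, number of genes tested in parentheses) over the 20 tumors, on log2 CPM. The values farthest from 0 are Socs1 with interferon response genes (0.52), Socs2 with leukocyte markers (0.50), Socs6 with interferon receptors (0.48) and Socs3 with immediate-early genes (0.47).

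Correlations among the members were spread around 0. Of the 28 pairs among them, 15 had r above 0 on log2 CPM, with a median r of 0.04. The pairs with the lowest permutation p were Socs2 with Socs7 (r = -0.51, permutation p = 0.0197, rho = -0.60) and Socs5 with Socs6 (r = 0.46, permutation p = 0.0436, rho = 0.39). In the fits over all genes no pair passed adjustment. With either member of a pair as the measure, the lowest edgeR adjusted p was 0.296 (Socs4 against Socs6). For Socs2 with Socs7 the edgeR adjusted p was 0.525 with Socs2 as the measure and 0.956 with Socs7. For Socs5 with Socs6 it was 0.646 with Socs5 as the measure and 0.320 with Socs6. Without the 2 tumors farthest from the median, r was -0.37 (without Lo 1 and Lo 4) and 0.20 (without Lo 2 and Lo 8). On log2(RPKM + 1), where the ribosomal RNA share stays in the library size, 25 of 28 pairs had r above 0 (median 0.26) and r of Socs2 with Socs7 was 0.02. A shift common to all genes of a tumor enters both genes of a pair on that scale, and its part in these values was not tested. Not every r rose, since that of Socs4 with Socs7 was 0.44 on log2 CPM and 0.36 on log2(RPKM + 1). The values on that scale are therefore not read as links between members.

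Members were also set beside genes that textbooks tie to them, 26 pairs chosen after the data were seen. Of these, 5 had a permutation p under 0.05 and 0 passed adjustment over all genes. Because of that choice the count of 5 carries no support, and this permutation test was not run over all genes to give a share. Socs1 had r = 0.57 with Irf1, an activator of interferon response, and this was 0.89 within Lo and 0.23 within Hi tumors. Socs3 had r = 0.68 with Junb (0.47 without Hi 3 and Hi 5), which was 0.07 within Lo and 0.90 within Hi tumors, whereas it had r = -0.03 with Stat3 and r = -0.30 with Il6st, the gene of gp130. Socs2 had r = 0.50 with Stat5b and r = 0.42 with Stat5a, and Cish had r = 0.04 with each of them. With the receptor genes Prlr and Ghr, Socs2 had r = -0.28 and r = 0.05, and with Igf1 it had r = 0.11. Socs5 had r = 0.48 with Egfr (0.23 without Lo 2 and Lo 8), and Socs6 had r = 0.23 with Kit.

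Tumors of this model gain and lose chromosomes, so each member was compared with the dosage of its own chromosome, taken as the median shift of the other genes on it. Of 18878 genes, 2183 (11.6%) were associated with the dosage of their chromosome at an adjusted p under 0.05 (permutation test over tumors), 2054 with a positive and 129 with a negative r, and no member was. Socs6 came closest among those with a positive r (r = 0.54 with Chr18, permutation p = 0.0144, adjusted p = 0.088), with r = 0.79 within Lo and -0.11 within Hi tumors. Leaving out for each gene the 2 tumors with the most extreme dosage, Socs6 had r = 0.43 (permutation p = 0.0797) and Socs3 had r = 0.57 (permutation p = 0.0149), neither past adjustment (adjusted p = 0.35 and 0.156), and Socs2 had r = -0.41. Socs1 had r = -0.56 with Chr16 (permutation p = 0.00979, adjusted p = 0.0693). Socs7 (r = 0.36) and Socs3 (r = 0.34), both on Chr11, Socs4 (r = 0.30), Cish (r = 0.02), Socs2 (r = -0.21) and Socs5 (r = -0.25) were weaker. The chromosomes of the members varied little, with an SD of dosage over tumors between 0.02 and 0.04 on the log2 scale, against 0.14 for Chr4.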

How the data were processed

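Pieces of 20 frozen tumors gave RNA for TruSeq mRNA libraries. The authors trimmed paired-end reads and aligned them to mm10, a C57BL/6 genome, with TopHat2 within MapRseq. The submitters' processing notes name TopHat2 2.0.12, featureCounts 1.4.4 and, beside mm10, hg19. The deposited values are raw counts per gene. Strand setting and annotation release are not given in the sources used here.

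Counts were tested with edgeR 4.0.16 (filterByExpr, TMM, quasi-likelihood, Benjamini-Hochberg over all genes, threshold 0.05) in R 4.3.3, with DESeq2 1.42.0 as an alternative. Log2 CPM used a prior count of 2. RPKM used total counts and the listed length. Correlations and dosage (from genes at mean CPM 5 or above) used 100000 two-sided permutations of tumors in Python 3.11.15 (numpy 2.4.6, pandas 2.3.3, scipy 1.17.1). In simulated data of 18883 genes, 200 of the better expressed genes were changed. With a change of 1 on the log2 scale between Lo and Hi, 193 were recovered and 11 unchanged genes were called. With a slope of 1 per log2 unit of Socs3, 172 were recovered and 12 unchanged genes were called. Association with other members, most of which vary less than Socs3, was not simulated.

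Members and gene lists were chosen with earlier results of these data known. Genes named are the members, the listed genes, those called and the 3 most alike genes per member at mean log2 CPM 1 or above. The numbers shared by Lo and Hi names did not pair the tumors. The scans against the leukocyte score and the ribosomal RNA share were added after the data were seen. Of the textbook pairs with a permutation p under 0.05, 1 is not reported here.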

Additional observations from a re-analysis of the deposited data

How the results depend on the processing

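Lo against Hi kept 0 calls with RLE size factors, without the ribosomal RNA locus, with the leukocyte score and with the shared number as a replicate block (0 calls, 872 genes at an unadjusted p under 0.05). It gave 1 call with DESeq2 and 1 without a filter on low counts. The numbers were not taken to pair the tumors, since r of the deviations of same-numbered tumors ran from -0.42 to 0.21 and exceeded 0.1 in 3 of 9 pairs, and 1 of 9 tumors correlated best with its own number. No member passed the threshold in any of these fits, and the difference of Cish, 0.00, changed sign with RLE (-0.00694), DESeq2 (-0.00695), no filter (-0.00329) and without the ribosomal RNA locus (-0.00223). DESeq2 called 8 genes with Socs1, 12 with Socs2, 50 with Socs3, 241 with Socs4, 2 with Socs5, 350 with Socs6, 5 with Socs7 and 69 with Cish. Without a filter on low counts the calls were 57 with Socs1, 82 with Socs3, 6 with Socs5, 48 with Socs6, 4 with Socs7 and 31 with Cish. RLE size factors gave 23 calls with Socs6. The leukocyte score as a covariate gave 12 with Socs5, 2 with Socs7 and 0 with Socs6, and Lo or Hi as a covariate gave 6 with Socs4 and 0 with Socs6. Without the 2 tumors farthest from the median, the calls were 1 with Socs2 and 0 with each of Socs4, Socs6 and Cish. Dosage calls fell to 1342 with Spearman's rho and to 508 without 2 tumors, where r of Socs5 was 0.0815, and r of Cish was -0.00305 with a mean CPM of at least 1 and -0.0179 with RLE. The r of Socs2 with Socs7 was 0.0210 on log2(RPKM + 1). Totals without the ribosomal RNA locus moved the median RPKM of Socs2 to 35.8, Socs4 to 5.64, Socs5 to 26.2, Socs6 to 4.28, Socs7 to 5.17 and Cish to 5.44. Principal transcript lengths, added after the data were seen, moved Socs1 to 0.360, Socs2 to 132, Socs6 to 4.81 and Cish to 10.3. Except where an alternative leaves out tumors or genes, the cause of these changes was not tested. Socs1 had few counts (22 to 116 per tumor), which gives a counting error of 14.2% (coefficient of variation).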
